A study of Mus musculus with 12 samples.

Results

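The leucine-rich repeat containing 8 genes, Lrrc8a, Lrrc8b, Lrrc8c, Lrrc8d and Lrrc8e, encode the subunits of the volume-regulated anion channel. They were taken by symbol from a table of RNA-seq read counts of mouse liver and made up 5 of its 25611 genes. The family was picked because Lrrc8a was similarly higher with CLP alone and with CLP followed by DCA, so its own group differences are given as a description, without a test. The other 4 genes entered by name.

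Whole livers were collected 30 hr post-surgery from 12 male C57BL6J mice aged 8 to 10 weeks, 4 in each of 3 groups. Sham mice had an abdominal incision without ligation or puncture of the cecum. CLP mice underwent cecal ligation and puncture, which releases gut contents into the abdomen and makes the animals septic. CLP+DCA mice had the same surgery and were injected intraperitoneally with dichloroacetate (DCA), an inhibitor of pyruvate dehydrogenase kinase, at 25 mg/kg at 24 hr, which was 6 hr before tissue collection. Mice of the other groups were injected at the same time per the labels, and what they received is not given in the sources used here. The comparisons asked how sepsis changed the RNA of each gene and whether the level differed when DCA had been given late in the septic course. CLP and CLP+DCA mice were compared with the same 4 sham mice.

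Cells that swell recover their volume by releasing chloride, potassium and organic osmolytes, and water follows. The volume-regulated anion channel carries the chloride and much of the osmolyte part of this release. It is built from LRRC8 subunits, of which LRRC8A is required for a working channel at the cell surface, while LRRC8B to LRRC8E combine with it and set what passes. Channels with LRRC8D pass uncharged and larger organic solutes such as taurine, and LRRC8 channels also let the immune messenger cyclic GMP-AMP into cells. Hepatocytes swell and shrink with nutrient uptake and hormones, and their volume is known to be tied to their metabolism.

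Lrrc8a (NCBI Gene 241296) lies on the plus strand of chromosome 2 from 30237769 to 30263790 of the mm10 genome. Lrrc8b (433926; 105415775 to 105486189), Lrrc8c (100604; 105519471 to 105608954) and Lrrc8d (231549; 105699969 to 105815215) follow one another on the plus strand of chromosome 5, with 33281 and 91014 bases between them and no other gene of the table there. Lrrc8e (72267) lies on the plus strand of chromosome 8 from 4226827 to 4237470. No member overlapped another gene of the table. The coding sequences, of 2385 to 2577 bases, lay in 1 exon in Lrrc8d and in 2 exons in the other 4 genes. They were 58.2% to 67.7% identical over the 10 pairs and shared 0 words of 31 bases, so reads of one member could hardly be assigned to another.

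The bases just before the annotated starts of Lrrc8a and Lrrc8d are shown because these were the abundant members. They come from RefSeq on the GRCm38.p6 build, the assembly of mm10, on the plus strand, at chr2:30237519-30237714 for Lrrc8a and chr5:105699719-105699968 for Lrrc8d. The Lrrc8a run stops before the earliest start in the GENCODE annotation. Capitals mark matches to the motifs searched, other than the GC box.
Lrrc8a: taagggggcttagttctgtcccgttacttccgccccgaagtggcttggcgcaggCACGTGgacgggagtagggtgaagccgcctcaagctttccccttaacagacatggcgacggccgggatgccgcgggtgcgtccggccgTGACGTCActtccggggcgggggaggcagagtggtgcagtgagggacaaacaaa
Lrrc8d: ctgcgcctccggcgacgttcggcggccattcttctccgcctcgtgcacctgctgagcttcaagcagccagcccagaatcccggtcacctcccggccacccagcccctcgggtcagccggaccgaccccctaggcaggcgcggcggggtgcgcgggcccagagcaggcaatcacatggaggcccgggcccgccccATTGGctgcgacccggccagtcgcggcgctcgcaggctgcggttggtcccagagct

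RefSeq gave a start for all 5 genes and 2 for Lrrc8d, and the 250 bases before each of these 6 starts were searched on both strands. The Lrrc8a window held the cyclic AMP response element TGACGTCA from 108 to 101 bases before the start, a motif found in 1.55% of the 32817 windows of the RefSeq table. It also held the E-box CACGTG from 196 to 191 bases before the start (6.02% of windows). Neither was found in another member's window. The Lrrc8d window held the CCAAT box, here as ATTGG on the shown strand, from 56 to 52 bases before the start, and Lrrc8b held one as well (33.8% of windows). The GC box GGGCGG was in 5 of the 6 windows, all but that of Lrrc8e (32.7% of windows). The AP-1 motif TGANTCA was found in Lrrc8b (6.75% of windows) and the NF-kappaB motif in Lrrc8c (7.25% of windows). The STAT motif TTCNNNGAA (7.01% of windows), the NFAT5 motif TGGAAA (18.6%) and the TATA box TATAAA (12.4%) were in 0 of the 6. No match overlapped another. The windows of Lrrc8a to Lrrc8d were rich in G and C, at 68.0%, 77.2%, 78.4% and 73.2%, and that of Lrrc8e had 58.0%. These matches describe the letters and carry no evidence of binding.

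Between 24436513 and 44266819 reads were counted per mouse, with a median of 30005989. Levels are given in CPM, the read counts of a gene scaled to a common library total, with factors between mice from the trimmed mean of M values (TMM). Of the 25611 genes, 13190 had enough reads to be tested, among them 4 of the 5 members. Lrrc8e did not pass. CLP+DCA replicate 3 stood apart, with a mean correlation of 0.926 with its own group against 0.966 to 0.970 for the other CLP+DCA mice, and with 6983 CPM of the acute phase gene Saa3 against 976 to 2029. Its values are therefore also named where a member's result rests on it.

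Lrrc8a was higher in septic livers whether or not DCA had been given. Sham mice 1 to 4 had 28.2, 30.0, 27.7 and 29.6 CPM (28.9 ± 1.09, SD, n = 4). CLP mice had 44.1, 41.0, 39.6 and 45.9 CPM (42.7 ± 2.90), and CLP+DCA mice 41.5, 40.9, 45.9 and 47.5 CPM (43.96 ± 3.26). Every CLP and CLP+DCA mouse was thus above every sham mouse, while the CLP and CLP+DCA ranges lay over each other. Behind these levels stood 757 to 1916 reads per mouse.

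The fitted difference of Lrrc8a from sham was 1.48-fold in CLP, a log2 fold change of 0.56 (standard error 0.08). It was 1.52-fold in CLP+DCA, a log2 fold change of 0.61 (standard error 0.08). Between CLP+DCA and CLP the log2 fold change was 0.04 (standard error 0.08). The standard errors make no allowance for the choice of the gene by these contrasts. Without CLP+DCA replicate 3, the last 2 log2 fold changes were 0.58 and 0.02. Groups that did not overlap, in either direction, were found for 26.5% of the genes tested in CLP against sham, 12.2% with CLP higher, and for 9.76% in CLP+DCA against sham, 4.78% with CLP+DCA higher. These shares are given as background only, since these contrasts chose the gene.

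**Figure D1:**
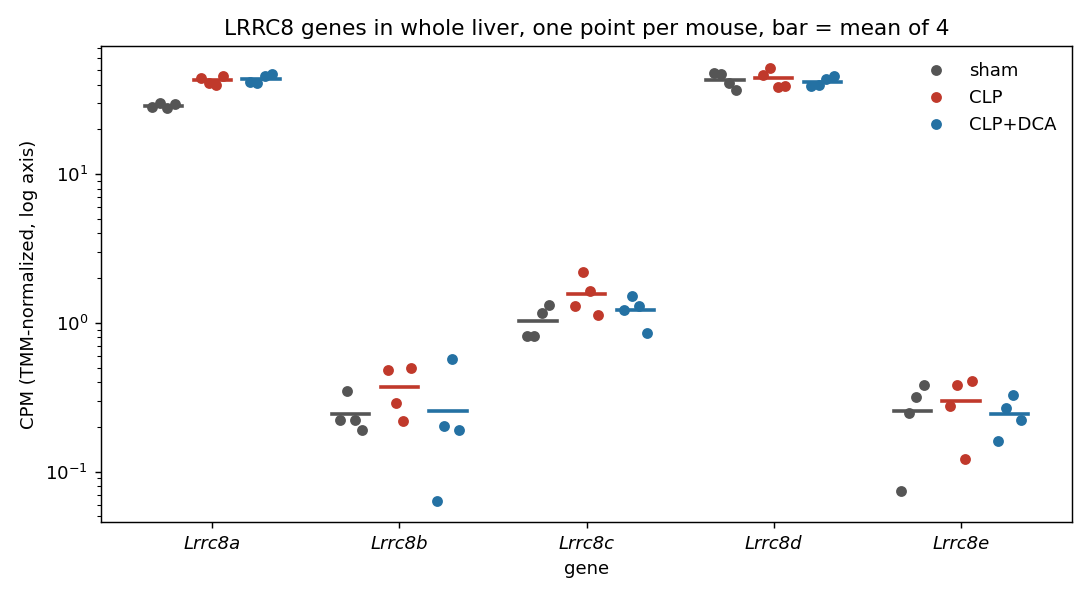
Levels of the 5 LRRC8 genes in CPM on a log axis, with 1 point per mouse and a bar at the mean of 4 mice. Lrrc8a is the gene whose sham points, at 27.7 to 30.0 CPM, all lie below the CLP and CLP+DCA points, at 39.6 to 47.5 CPM, while the groups overlap in the other 4 genes.

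Whole liver holds many cell types, so more RNA per cell and a different mix of cells cannot be told apart in these values. Summed levels of the 8 hepatocyte marker genes were 63876 to 83155 CPM in sham mice, 28733 to 46789 in CLP mice and 25709 to 58855 in CLP+DCA mice. Of the 8, 2 fell in CLP against sham by edgeR's adjusted p, beside 1.14% of all genes tested. The 8 neutrophil markers summed to 4.75 to 5.95 CPM in sham mice, 26.98 to 37.6 in CLP mice and 4.21 to 50.4 in CLP+DCA mice. Of the 6 that could be tested, 1 rose in CLP against sham, beside 1.64% of all genes tested. The 8 Kupffer cell markers summed to 149 to 253, 234 to 311 and 197 to 386 CPM in the 3 groups, those of endothelium to 101 to 127, 123 to 158 and 96.0 to 142, those of stellate cells to 75.4 to 123, 120 to 375 and 97.6 to 252, and those of cholangiocytes to 51.7 to 64.8, 79.3 to 116 and 54.5 to 235. Lymphocyte markers summed to 1.81 to 3.83, 0.449 to 1.40 and 0.704 to 2.43 CPM. In CLP against sham, 0 genes of the Kupffer cell, endothelium, stellate cell, cholangiocyte and lymphocyte lists passed edgeR's adjusted threshold. In CLP+DCA against sham, 0 genes of any list passed it, beside 0.0379% of all genes tested. No marker of any list was at 0 in all mice, and the part of the cell mix in the level of Lrrc8a was not tested.

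Lrrc8d, the other abundant member and the subunit linked to transport of organic solutes, did not pass the test in any comparison. Its levels were 47.9, 47.2, 40.7 and 37.0 CPM in sham (43.2 ± 5.24, SD, n = 4) and 46.2, 52.1, 38.8 and 38.9 CPM in CLP (44.001 ± 6.41). CLP+DCA mice had 39.1, 39.5, 43.6 and 45.6 CPM (42.0 ± 3.19). All 3 groups overlapped over most of their range. The log2 fold change was 0.03 in CLP against sham (95% interval -0.23 to 0.28, adjusted p = 0.896 by edgeR's quasi-likelihood test) and -0.04 in CLP+DCA against sham (-0.30 to 0.21, adjusted p = 0.879). Between CLP+DCA and CLP it was -0.07 (-0.33 to 0.19, adjusted p = 0.877). Mice differed more in Lrrc8d than in Lrrc8a in sham, with coefficients of variation of 12.1% and 3.77%, and in CLP, with 14.6% and 6.80%, and about equally in CLP+DCA, with 7.60% and 7.42%.

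Lrrc8c, a subunit found in many cell types including endothelium and lymphocytes, was a minor transcript. Sham mice had 0.818, 0.817, 1.17 and 1.31 CPM (1.03 ± 0.252, SD, n = 4), CLP mice 1.29, 2.20, 1.64 and 1.12 CPM (1.56 ± 0.477), and CLP+DCA mice 1.21, 1.51, 1.30 and 0.859 CPM (1.22 ± 0.272). The groups overlapped, and 22 to 68 reads per mouse stood behind the levels. The log2 fold change in CLP against sham was 0.59 (95% interval 0.0049 to 1.18), which was near that of Lrrc8a but with an adjusted p of 0.173 by edgeR's quasi-likelihood test. The unadjusted p was 0.0484 from the same edgeR fit, a level that 28.6% of all genes tested reached. CLP+DCA against sham gave 0.24 (-0.35 to 0.83, adjusted p = 0.692 by edgeR) and CLP+DCA against CLP gave -0.35 (-0.94 to 0.23, adjusted p = 0.694 by edgeR).

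Lrrc8b, a further partner of LRRC8A, was close to the lowest level that could be tested. Sham mice had 0.223, 0.347, 0.222 and 0.191 CPM (0.246 ± 0.0688, SD, n = 4), CLP mice 0.484, 0.287, 0.218 and 0.494 CPM (0.371 ± 0.140), and CLP+DCA mice 0.0638, 0.202, 0.569 and 0.191 CPM (0.256 ± 0.217). The highest and the lowest of the 12 values were both from CLP+DCA mice, replicates 3 and 1. Lrrc8b had 2 to 21 reads per mouse and wide intervals. The log2 fold change was 0.57 in CLP against sham (-0.58 to 1.71, adjusted p = 0.476 by edgeR), 0.08 in CLP+DCA against sham (-1.09 to 1.25, adjusted p = 0.953) and -0.49 in CLP+DCA against CLP (-1.63 to 0.65, adjusted p = 0.786). Without CLP+DCA replicate 3 the last 2 became -0.70 and -1.26, still without passing the test.

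Lrrc8e, known mainly from epithelia, had 2 to 14 reads per mouse. Sham mice had 0.0744, 0.248, 0.317 and 0.383 CPM (0.255 ± 0.133, SD, n = 4), CLP mice 0.277, 0.383, 0.121 and 0.404 CPM (0.296 ± 0.129), and CLP+DCA mice 0.160, 0.269, 0.325 and 0.223 CPM (0.244 ± 0.0701). The lowest sham mouse lay below every other value and the groups overlapped. Mean log2 CPM, computed with a prior count of 2 reads, differed by 0.21 in CLP against sham (p = 0.6), by 0.05 in CLP+DCA against sham (p = 0.914) and by -0.17 in CLP+DCA against CLP (p = 0.657) in two-sided exact permutation tests with n = 4 in each group, which can give no p below 0.0286.

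None of Lrrc8b, Lrrc8c and Lrrc8d passed edgeR's adjusted threshold of 0.05 in any of the 3 comparisons. Of all genes tested, 2.78% passed in CLP against sham (367 genes, of which 216 higher, or 1.64%, and 151 lower, or 1.14%), 0.0379% in CLP+DCA against sham (5 genes) and 0.00758% in CLP+DCA against CLP (1 gene). At an unadjusted p under 0.05 from the same fit, Lrrc8c in CLP against sham was the 1 call of the 3 genes in these comparisons, against 28.6%, 13% and 10% of all genes. DESeq2 on the counts of the 12 mice called 0 of Lrrc8b, Lrrc8c, Lrrc8d and Lrrc8e in each comparison. Of all genes that it tested, it called 13%, 1.83% and 0.815% in the 3 comparisons.

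**Figure D2:**
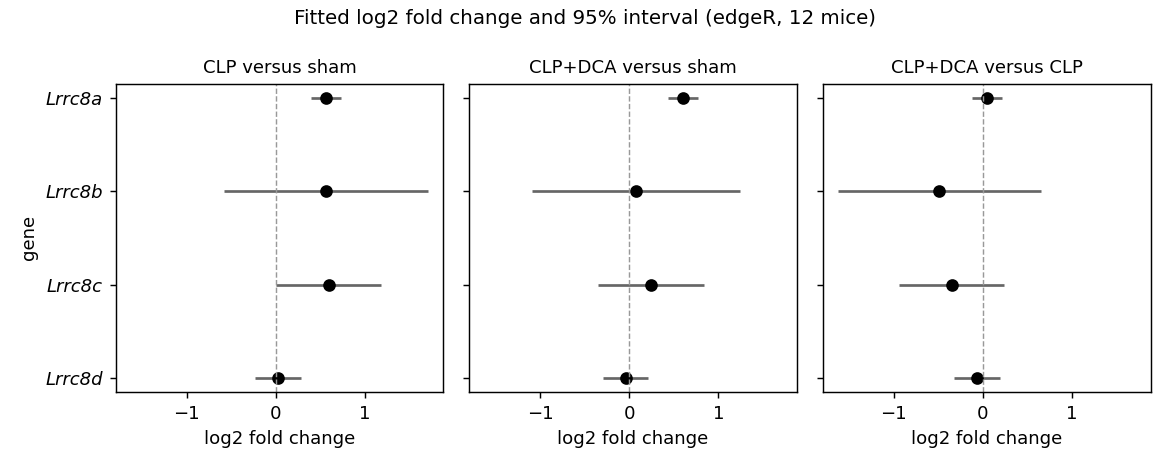
Log2 fold changes of the 4 LRRC8 genes that passed the filter on low counts, in 3 panels for the 3 comparisons, as points with 95% intervals from the edgeR fit of 12 mice. The points and intervals of Lrrc8a are a description only and not a test, since its values chose the family. Its points lie at 0.56, 0.61 and 0.04. The intervals of Lrrc8d span 0 in all 3 panels.

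To compare members with each other, reads were divided by the exon length inside the coordinates of the table. These lengths were 4254 bases for Lrrc8a, 2841 for Lrrc8b, 2829 for Lrrc8c, 4220 for Lrrc8d and 3878 for Lrrc8e. On this scale of CPM per kilobase, the order in sham was Lrrc8d (10.2 ± 1.24), Lrrc8a (6.79 ± 0.256), Lrrc8c (0.364 ± 0.0890), Lrrc8b (0.0865 ± 0.0242) and Lrrc8e (0.0659 ± 0.0342, each SD, n = 4). The last 2 did not differ beyond their spread. In CLP, Lrrc8d (10.4 ± 1.52) and Lrrc8a (10.03 ± 0.682) no longer differed beyond the spread between mice. In CLP+DCA the means were also within that spread (9.94 ± 0.755 and 10.3 ± 0.766). Within each CLP+DCA mouse, however, Lrrc8a was slightly above Lrrc8d, at 49.5% ± 0.493 and 47.7% ± 0.436 of the summed level. The means of the 3 minor members had the same order in CLP and CLP+DCA, but that of Lrrc8b and Lrrc8e turns with the length used, which is given with the shares.

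The make-up of the family's RNA followed from these levels. The shares are a description, since the group differences of Lrrc8a chose the family. Lrrc8a held 36.1%, 37.7%, 38.9% and 42.6% of the summed level per length in sham mice 1 to 4 (38.8% ± 2.77, SD, n = 4). It held 47.1%, 42.0%, 48.5% and 52.2% in CLP mice (47.4% ± 4.22) and 50.01%, 48.9%, 49.4% and 49.8% in CLP+DCA mice (49.5% ± 0.493). CLP replicate 2 lay within the sham range, the other 7 septic mice above it. Lrrc8d held 58.2% ± 3.53, 49.0% ± 3.83 and 47.7% ± 0.436 in the 3 groups, and Lrrc8c 2.11% ± 0.649, 2.60% ± 0.719 and 2.09% ± 0.563. Lrrc8b and Lrrc8e together with Lrrc8c thus stayed a small part in every mouse, with at most 0.916% for Lrrc8b and 0.603% for Lrrc8e. The level summed over the 5 genes was 17.5 ± 1.16, 21.2 ± 1.64 and 20.9 ± 1.49 CPM per kilobase in the 3 groups. The coordinates of the table leave out much of the last exon of Lrrc8b and Lrrc8c, whose whole transcripts have 6726 and 6976 bases. Divided by whole transcript length, the shares in sham were 59.4% for Lrrc8d, 39.2% for Lrrc8a, 0.873% for Lrrc8c, 0.393% for Lrrc8e and 0.211% for Lrrc8b. On that scale Lrrc8e was above Lrrc8b in all 3 groups, with 0.0659 against 0.0365, 0.0764 against 0.0551 and 0.0629 against 0.0381 CPM per kilobase.

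**Figure D3:**
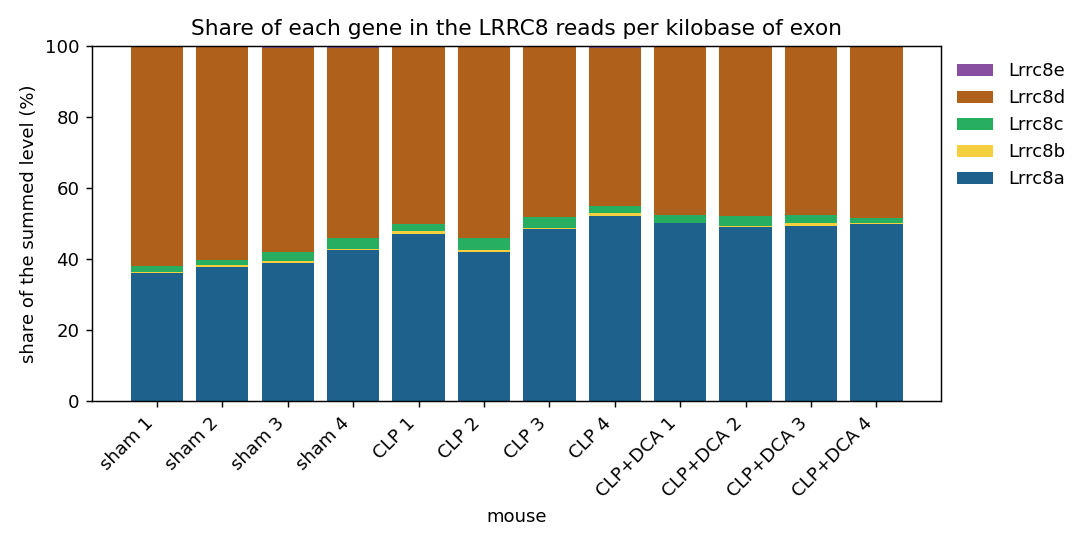
Share of each LRRC8 gene, in percent, in the summed reads per kilobase of exon, as 1 stacked bar per mouse. The Lrrc8a part spans 36.1% to 42.6% in sham mice and 42.0% to 52.2% in CLP mice, and it is close to 49.5% in all 4 CLP+DCA mice, while Lrrc8b, Lrrc8c and Lrrc8e form thin bands.

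The ratio of Lrrc8a to Lrrc8d reads within a mouse does not depend on how libraries are scaled. Its group differences are a description, since those of Lrrc8a chose the family. The ratio was 0.588, 0.635, 0.681 and 0.800 in sham mice (0.676 ± 0.0912, SD, n = 4). It was 0.956, 0.788, 1.02 and 1.18 in CLP mice (0.986 ± 0.163) and 1.06, 1.03, 1.05 and 1.04 in CLP+DCA mice (1.05 ± 0.0122). CLP replicate 2 again lay within the sham range, by its high Lrrc8d of 52.1 CPM rather than a low Lrrc8a. The CLP+DCA mice were close to one another, and the 2 genes were both higher in replicates 3 and 4 than in replicates 1 and 2. Over the 12 mice, log2 CPM of Lrrc8a and Lrrc8d had a Pearson correlation of 0.01, and their deviations from the group means one of 0.17. For Lrrc8a and Lrrc8c these values were 0.31 and -0.62. The points share their libraries and, for the first value of each pair, the group differences.

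**Figure D4:**
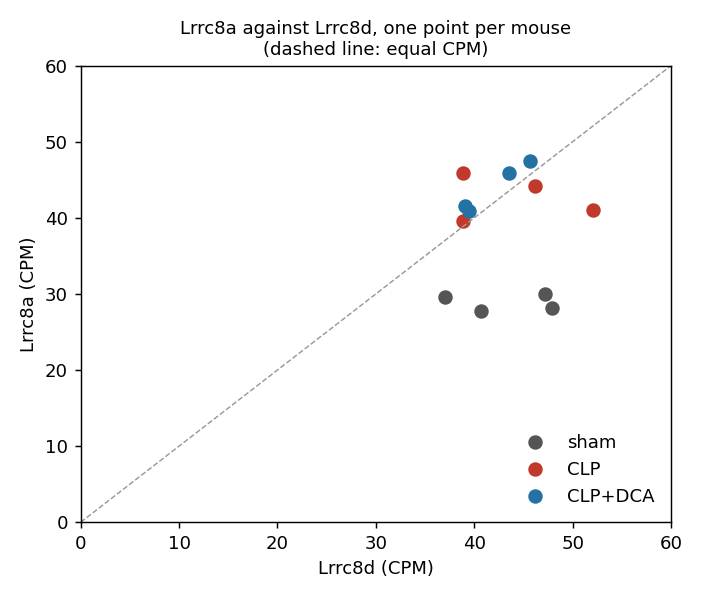
Lrrc8a against Lrrc8d, both in CPM, with 1 point per mouse and a dashed line at equal CPM. The 4 sham points lie below the others at 27.7 to 30.0 CPM of Lrrc8a, whereas the 3 groups overlap along the Lrrc8d axis between 37.0 and 52.1 CPM.

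The genes beside the members on the chromosomes did not pass the test. Phyhd1, 2412 bases after Lrrc8a, had a log2 fold change of -0.17 in CLP against sham (adjusted p = 0.475 by edgeR) and -0.25 in CLP+DCA against sham (adjusted p = 0.503). 1700084E18Rik, on the minus strand from 30237198 to 30237631, begins 137 bases before the start of Lrrc8a and is read away from it, so that the pair is divergent and its first bases lie in the window shown above. Its mean levels were 0.244, 0.223 and 0.313 CPM in the 3 groups, too low to be tested, and the groups overlapped. Gbp11, a guanylate-binding protein gene before Lrrc8b, was at 11.03 CPM in sham and 3.24 in CLP, a log2 fold change of -1.74 with an adjusted p of 0.0702 by edgeR. Zfp326 (0.02) after Lrrc8d and Prr36 (-0.63) and Map2k7 (-0.10) beside Lrrc8e had log2 fold changes in CLP against sham with adjusted p values of 0.921, 0.196 and 0.312 by edgeR.

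Other genes of cell volume control were taken as 6 lists with 62 genes, of which 55 could be tested. In CLP against sham, Ano6 rose and Aqp8 fell, which makes 2 of 55 genes or 3.64%, beside 2.78% of all genes. The median log2 fold change of the 55 genes was 0.07 and that of all genes 0.02. At an unadjusted p under 0.05 from edgeR, 16 of the 55 passed (29.1%, beside 28.6% of all genes), 11 of them higher and 5 lower, beside 15.5% and 13.1% of all genes. The groups did not overlap in 18 of the 55 (32.7%, beside 26.5%). In CLP+DCA against sham, 0 of the 55 passed edgeR's adjusted threshold, beside 0.0379% of all genes. The unadjusted one was passed by 9 (16.4%, beside 13% of all genes), while DESeq2 on 12 mice called 2 of 56 (3.57%, beside 1.83%). In CLP+DCA against CLP, 0 passed the adjusted threshold, beside 0.00758% of all genes, and 8 the unadjusted one (14.5%, beside 10%). DESeq2 on 12 mice likewise called 0, beside 0.815% of all genes.

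Of the 17 anion channel genes tested, 1 passed the adjusted threshold in CLP against sham (5.88%, beside 2.78% of all genes). Ano6, a calcium-activated channel that also scrambles membrane lipids, had 7.14, 6.83, 7.03 and 7.50 CPM in sham (7.12 ± 0.278, SD, n = 4) and 10.1, 13.2, 11.9 and 10.8 CPM in CLP (11.5 ± 1.34). CLP+DCA mice had 9.86, 10.5, 10.5 and 6.20 CPM, so that 3 were near the CLP range and replicate 4 was below the sham range. Ano6 rose by a log2 fold change of 0.69 in CLP against sham (standard error 0.16, adjusted p = 0.0461 by edgeR), and that in CLP+DCA against sham was 0.38 (adjusted p = 0.343). Ano10 of the same family had a log2 fold change of 0.62 in CLP against sham (adjusted p = 0.0849 by edgeR), with 14.1 ± 1.19 CPM in sham and 21.7 ± 4.63 in CLP. For Ano10, DESeq2 on 12 mice gave an adjusted p of 0.0404.

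Of the 5 water channel genes tested, 1 passed in CLP against sham (20%, beside 2.78% of all genes). Aqp8, a water channel of the hepatocyte's bile canaliculus and inner compartments, had 30.5, 35.6, 43.97 and 14.8 CPM in sham (31.2 ± 12.3, SD, n = 4) and 12.1, 5.31, 14.0 and 11.2 CPM in CLP (10.7 ± 3.75). Sham replicate 4 was the closest to the CLP range. CLP+DCA mice had 20.5, 21.7, 11.6 and 19.3 CPM, so that replicate 3 lay within the CLP range and the other 3 within the sham range. Aqp8 fell by 1.54 on the log2 scale in CLP against sham (standard error 0.35, adjusted p = 0.0464 by edgeR) and had a log2 fold change of -0.77 in CLP+DCA against sham (adjusted p = 0.378). Both calls were close to the threshold in the edgeR fit of 12 mice. With library size alone as the scaling, edgeR's adjusted p was 0.0720 for Ano6 and 0.0535 for Aqp8. Without the filter on low counts it was 0.0634 and 0.0653. Without single mice, Ano6 passed in 3 and Aqp8 in 4 of 12 edgeR fits. On the 8 mice compared, edgeR gave adjusted p values of 0.00758 for Ano6 and 0.0315 for Aqp8. DESeq2 on 12 mice gave 0.00286 and 0.000737. Aqp1, a water channel of endothelium and bile ducts, had a log2 fold change of 0.48 (adjusted p = 0.143 by edgeR).

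In the lists of cotransport and its kinases (12 genes tested), the potassium side (5), osmolytes (9) and cyclic GMP-AMP (7), 0 genes passed the adjusted threshold of edgeR in CLP against sham, beside 2.78% of all genes. At an unadjusted p under 0.05 from edgeR the counts were 3, 2, 2 and 3. These are 25%, 40%, 22.2% and 42.9% of the genes tested in each list, beside 28.6% of all genes. Over all 6 lists, DESeq2 called 7 of the 59 genes that it tested on 12 mice (11.9%, beside 13% of all genes) and 18 of 59 on the 8 mice compared (30.5%, beside 23.3%). Wnk4, a kinase that steers chloride cotransporters, was at 3.55 ± 0.539 CPM in sham and 1.75 ± 0.484 in CLP (SD, n = 4), with an adjusted p of 0.0901 by edgeR. Its relative Wnk1, at 0.31, had an adjusted p of 0.122. Atp1b1, the beta subunit of the sodium pump, was at 58.4 ± 10.1 CPM in sham and 32.8 ± 9.07 in CLP. Its log2 fold change was -0.83 (adjusted p = 0.0756 by edgeR and 0.0201 by DESeq2 on 12 mice). The potassium channel gene Kcnq1, at 12 to 71 reads per mouse in these 2 groups, had one of 0.94 (adjusted p = 0.105 by edgeR and 0.0722 by DESeq2 on 12 mice).

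Of the 9 osmolyte genes tested, 3 had higher and 6 lower fitted levels in CLP than in sham. Slc5a3, the sodium-coupled importer of myo-inositol, was at 4.44 ± 0.498 CPM in sham and 2.85 ± 0.484 in CLP (SD, n = 4), a log2 fold change of -0.63 (adjusted p = 0.0651 by edgeR). Slc6a6, the importer of taurine, was at 110.4 ± 20.2 and 72.7 ± 18.2 CPM, a log2 fold change of -0.60 (adjusted p = 0.0803 by edgeR). In CLP+DCA they were at 3.30 to 5.27 and at 65.4 to 94.4 CPM. Neither passed edgeR's adjusted threshold on 12 mice in CLP against sham, whereas DESeq2 on 12 mice gave adjusted p values of 0.0174 for Slc5a3 and 0.0287 for Slc6a6. Slc38a2, a sodium-coupled amino acid carrier of the same list, had log2 fold changes of 0.34 in CLP and 0.79 in CLP+DCA against sham. Csad, also of this list, went the other way, with -0.16 and -0.71. Both were chosen after their values were seen, and neither passed edgeR's adjusted threshold. In CLP+DCA against sham, 2 of the 9 osmolyte genes had higher and 7 lower fitted levels. Slc19a1, a folate carrier that also imports cyclic dinucleotides, had a log2 fold change of 0.46 in CLP against sham (adjusted p = 0.0901 by edgeR), and Tmem173, which encodes the cyclic GMP-AMP sensor STING, one of 0.90 (adjusted p = 0.129).

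**Figure D5:**
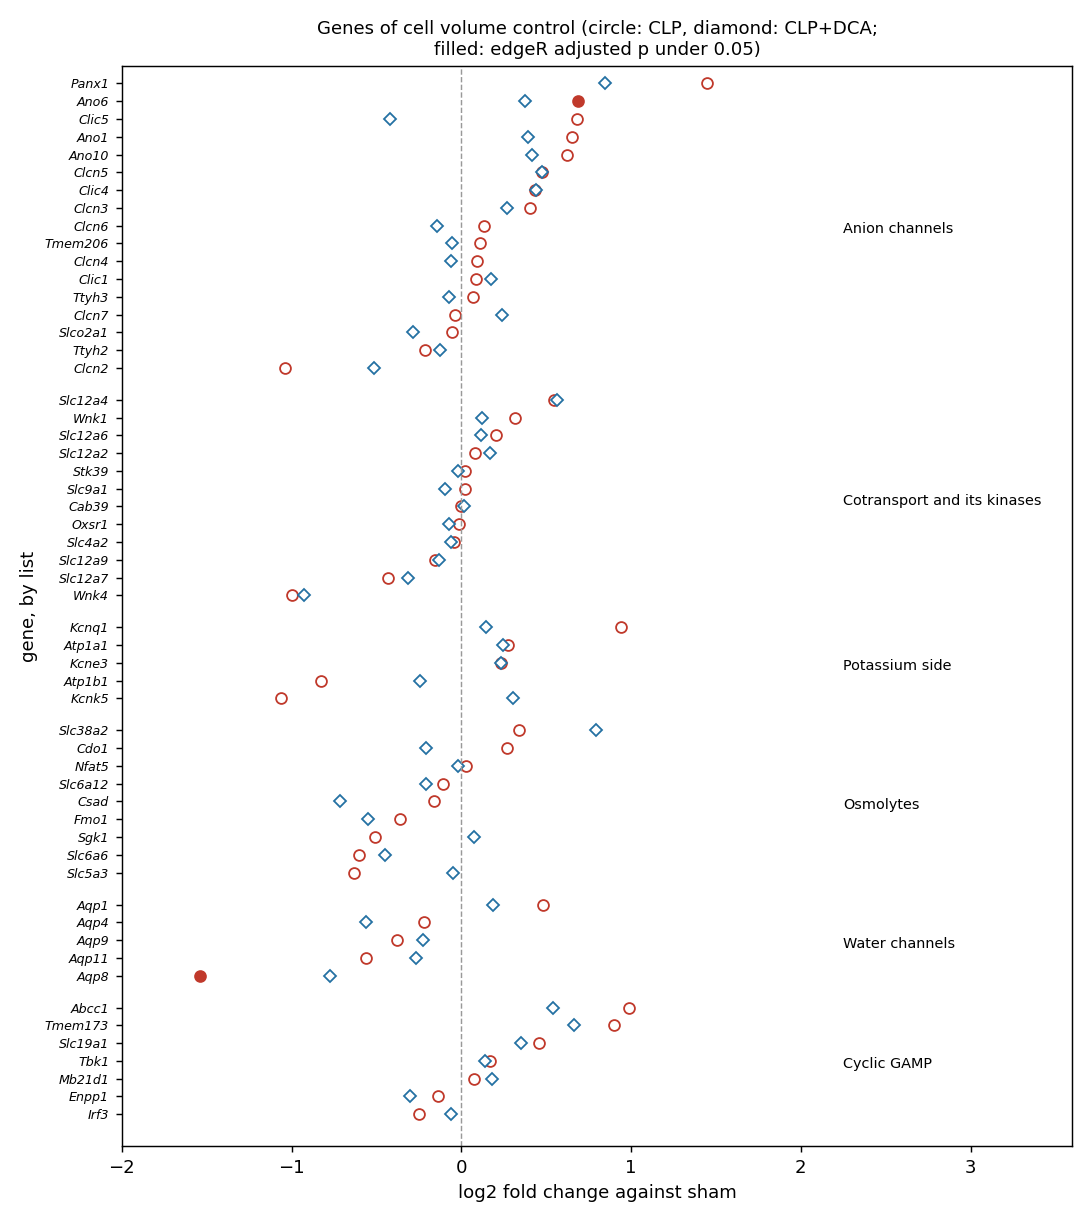
Log2 fold changes against sham of 55 genes of cell volume control, grouped by list, with a circle for CLP and a diamond for CLP+DCA, filled where edgeR's adjusted p was under 0.05. The 2 filled symbols are the CLP circles of Ano6 (0.69) and Aqp8 (-1.54).

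The 5 genes whose log2 CPM over the 12 mice followed Lrrc8a most closely, by Pearson correlation among the genes tested, were Saa3 (0.93), Bnip2 (0.91), Qsox1 (0.90), Crybg1 (0.90) and Map7d1 (0.90). Saa3 encodes an acute phase protein, Bnip2 a BCL2-interacting protein and Qsox1 an enzyme that forms disulfide bonds. The group differences enter this measure. Saa3 was at 15.1 ± 3.09, 6499 ± 2528 and 2798 ± 2826 CPM in the 3 groups, sham first (SD, n = 4). Its log2 fold change between CLP+DCA and CLP was -1.22 (standard error 0.55), beside 0.04 for Lrrc8a. These groups overlapped for Saa3 through CLP+DCA replicate 3, at 6983 CPM. Spearman correlations with Lrrc8a were 0.68 for Saa3, 0.69 for Bnip2 and Qsox1 and 0.79 for Map7d1. Bnip2 was at 49.997 ± 1.34, 68.0 ± 4.64 and 63.8 ± 2.39 CPM in the 3 groups, sham first (SD, n = 4), Qsox1 at 788 ± 9.46, 1112 ± 78.3 and 1042 ± 61.3 CPM, and Map7d1 at 56.3 ± 1.996, 73.2 ± 3.99 and 72.6 ± 6.81 CPM. In each of the 5 genes all 8 septic mice were above the 4 sham mice, a description only, since these values picked the genes. Of all genes tested, 12.2% were higher without overlap in CLP against sham and 4.78% in CLP+DCA against sham. After the group means were taken off, Crybg1 (24.2 ± 2.29, 35.7 ± 3.77 and 35.0 ± 7.19 CPM) still had a correlation of 0.82 with Lrrc8a, against 0.16 to 0.35 for the other 4. Ranked by Spearman correlation, the first 5 genes shared 1 with this set, again Crybg1 (0.94), and ranked by the deviations they shared 0.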

How the data were processed

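The authors made the libraries from whole-liver RNA with the TruSeq RNA library kit V2. Per the submitters' processing notes, which name STAR 2.5, featureCounts of Subread 1.5.0-p1, DESeq2 and the mm10 genome, reads were aligned and counted per gene. The deposited table holds unnormalized counts with symbols, NCBI Gene identifiers and coordinates. The gene annotation and strand setting of the counting are not given in the sources used here. Each labelled sample was 1 mouse and 1 replicate, in groups of 4. Depth was 24436513 to 44266819 reads per mouse. Libraries carried no molecular identifiers, so repeated reads of 1 molecule are counted separately and the SD between mice is given in place of counting error.

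The counts were analyzed in R 4.3.3 with edgeR 4.0.16. Genes were kept by filterByExpr with a minimum count of 10, TMM factors were used, and 1 robust quasi-likelihood fit of all 12 mice gave the 3 contrasts. Benjamini-Hochberg adjustment ran over the 13190 genes kept, with a threshold of 0.05. Intervals at 95% use the t quantile of that fit. Lrrc8e was removed by the filter and was tested on log2 CPM with an exact permutation test, an alternative chosen after seeing the data, as was division by whole transcript length. The self-test on simulated counts was run first. The members and the lists were chosen with earlier results of these data known. Named genes were the members, genes of each volume list past the threshold with the 2 of smallest p in CLP against sham, the 5 genes most correlated with Lrrc8a, and the neighbours of the members. Alternatives were DESeq2 1.42.0 on 12 or 8 mice, edgeR on 8 mice, other scaling, no filter, the replicate number as a block, and leaving out each mouse. Exon lengths came from GENCODE M21 and promoters from RefSeq, both on GRCm38. Figures were drawn with matplotlib 3.10.9. Protein sequences were not used here.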

Additional observations from a re-analysis of the deposited data

How the results depend on the processing

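When single mice were left out, Lrrc8a was at 0.53 to 0.60 (log2) in CLP against sham, 0.57 to 0.65 in CLP+DCA against sham and 0.0040 to 0.08 in CLP+DCA against CLP, which is a description, since these values chose the family. Scaling by library size alone shifted the median of all genes by -0.17 in CLP against sham, -0.06 in CLP+DCA against sham and 0.11 in CLP+DCA against CLP. Lrrc8a was then at 0.39 in CLP against sham and 0.16 in CLP+DCA against CLP. Relative to the median of all genes it was at 0.54 under both scalings in the former and at 0.04 in the latter. Under the same scaling Lrrc8d was at -0.154 in CLP against sham and 0.0486 in CLP+DCA against CLP, and Lrrc8b at -0.0234 in CLP+DCA against sham. Lrrc8e in CLP+DCA against sham was at -0.0912 with DESeq2 on 12 mice, -0.0897 with DESeq2 on 8 mice and -0.0861 without the filter. These are fitted log2 fold changes, whereas its main value was a difference in mean log2 CPM. No alternative brought Lrrc8b, Lrrc8c, Lrrc8d or Lrrc8e past its threshold. Not divided by length, Lrrc8a held 50.2% of the members' reads in CLP+DCA.

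Counts of genes called depended strongly on the fit. In CLP against sham, DESeq2 called 1894 genes on 12 mice and 3428 on 8 mice, edgeR 2387 on 8 mice, 209 with library size alone and 122 without the filter. In CLP+DCA against sham the first 4 of these gave 247, 169, 0 and 3, and in CLP+DCA against CLP the first 3 gave 136, 80 and 0. Of the cell volume genes, 7, 18, 10, 0 and 0 were called in CLP against sham and 2 and 1 by DESeq2 on 12 and 8 mice in CLP+DCA against sham. With the replicate number as a block, edgeR called 46, 0 and 4 genes in the 3 comparisons and 0 cell volume genes, and neither Ano6 nor Aqp8 passed. The numbers are not known to pair mice, and of 12 same-numbered pairs 1 had a correlation of deviations over 0.1 (range -0.459 to 0.55). Of the 5 genes most like Lrrc8a, 1 stayed with Spearman correlation and 0 with deviations from the group means.

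Leaving out single mice gave 10 genes (without sham replicate 3) to 3157 (without CLP+DCA replicate 3) in CLP against sham, 1 to 11 in CLP+DCA against sham and 0 to 616 (without CLP+DCA replicate 3) in CLP+DCA against CLP. Cell volume genes called ranged from 0 to 15, stayed at 0, and ranged from 0 to 3 in these comparisons. In CLP against sham, CLP+DCA against sham and CLP+DCA against CLP, Lrrc8b ranged from 0.38 to 0.79, -0.70 to 0.39 and -1.26 to -0.18, Lrrc8c from 0.40 (without CLP replicate 2) to 0.73, 0.13 (without CLP+DCA replicate 2) to 0.38 (without sham replicate 4) and -0.48 to -0.15 (without CLP replicate 2), Lrrc8d from -0.0648 to 0.0820, -0.111 to 0.00994 and -0.124 to 0.0229, and Lrrc8e from -0.152 to 0.407, -0.357 to 0.0690 and -0.492 to -0.0491. The Lrrc8e values are fitted log2 fold changes from only those fits in which it passed the filter on low counts. Its main values were differences in mean log2 CPM, so the main and left-out values are not directly comparable. The cause of the changes between fits was not tested. Lrrc8b and Lrrc8e had 2 to 21 reads per mouse.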
